A study of Homo sapiens with 42 samples.

Results

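Aminoacyl-tRNA synthetases are the enzymes that join each amino acid to its tRNA before protein synthesis. The 36 genes described here were chosen by name, as the rows of 36 listed symbols among the 50648 gene symbols shared by the 7 count tables. Names ending in 2 were taken as mitochondrial enzymes (16 genes) and the other 20 as cytosolic names. GARS and KARS, among those 20, each encode both the cytosolic and the mitochondrial enzyme and are called dual below. The symbols are the older ones used in the files, so AARS is the gene now called AARS1.

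The data are bulk RNA-seq of 7 established human cell lines of acute lymphoblastic leukaemia. Cells of each line were collected without treatment or after 4 h with 1 IU/ml of L-asparaginase. Nalm6, SUPB15, RS411, REH and 697 are B-precursor lines, and CEM and DND41 are T-lineage lines. Each of the 14 groups held 3 libraries, which the labels describe as separate experiments, so the 42 libraries sample 7 lines and the replicates are cultures of 1 line each. Every line comes from 1 leukaemia, grown in a glutamine-supplemented medium with serum. The comparisons ask how the synthetase genes responded to the drug in each line, and whether cytosolic and mitochondrial enzymes responded alike.

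L-asparaginase is an enzyme drug for this leukaemia that breaks asparagine down to aspartate and, to a lesser degree, glutamine to glutamate. A tRNA whose amino acid is short stays uncharged, and the kinase GCN2 (gene EIF2AK4) reads uncharged tRNA and raises translation of the transcription factor ATF4. ATF4 with its partners binds C/EBP-ATF response elements, and genes of cytosolic synthetases are among its known targets. Several cytosolic synthetases sit together in the multisynthetase complex, held by scaffold proteins, while mitochondrial synthetases are nuclear genes whose proteins are imported to serve the separate mitochondrial ribosome.

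Libraries held 15.07 to 77.14 M counts, with a median of 40.28 M. Counts of a single member in a single library ran from 43 to 56781, and the lowest for a cytosolic name was 1132. Levels are given in counts-per-million (CPM), after TMM scaling of the libraries. PAX5, a B-lineage factor, averaged 290 to 409 CPM in the B lines and at most 0.344 CPM in the T lines. CD3D, a T-cell receptor subunit, averaged 475 and 597 CPM in the T lines and at most 0.155 CPM in the B lines, although DND41 also held the B marker CD79A at 844 CPM. Other listed markers departed from this split. The B marker VPREB1 averaged 0.495 CPM in REH and 18.5 CPM in CEM, and EBF1 20.5 CPM in DND41. The T marker CD2 averaged 2.64 CPM in DND41. Summed B markers reached 1064 CPM in a T-line library, above the lowest B-line library (861 CPM). Summed T markers were at least 1053 CPM in T lines and at most 2.19 CPM in B lines. Untreated library A of DND41, RS411, SUPB15 and Nalm6 and untreated library 1 of 697 stood apart. In these 5 libraries 6 small non-coding RNAs took 3.35% to 7.23% of counts, against 7.83% to 13.5% in the other untreated libraries of those lines. Treated libraries held 5.77% to 17.8%, and treated A (5.77%) and B (7.73%) of DND41 were low as well. Fits without untreated A of DND41 kept its treated A and B. A further 3 treated libraries (SUPB15 C, REH A and RS411 B) held 99, 19 and 3 genes that reached 1 CPM there and had at most 3 counts in sum over the remaining 5 libraries of that line. The counts of the mean response are given with and without the 5 untreated and the 3 treated libraries, and other results where stated. Counts and medians of smaller gene lists, and summed levels, use every library.

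Averaged over the 7 lines, most cytosolic synthetase genes rose with the drug and the mitochondrial ones were split. Of the 20 cytosolic names, 13 rose, 4 fell and 3 were not called at an adjusted p under 0.05 in edgeR's quasi-likelihood test. Of the 16 mitochondrial names, 8 rose, 4 fell and 4 were not called. Over all 20983 genes tested in that model, 17.6% were called higher and 19.4% lower, and all 36 members were among the genes tested. The median log2 fold change, treated against untreated, was 0.30 for the cytosolic names and 0.12 for the mitochondrial names, beside -0.02 over all genes. Without the 5 untreated libraries that stood apart, 15 cytosolic names rose and 3 fell, and 7 mitochondrial names rose and 6 fell, beside 19.9% of all genes higher and 19.9% lower in that fit. Without the 3 treated libraries, the numbers were 13 and 4, and 7 and 3, beside 16% and 17.8%.

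**Figure D1:**
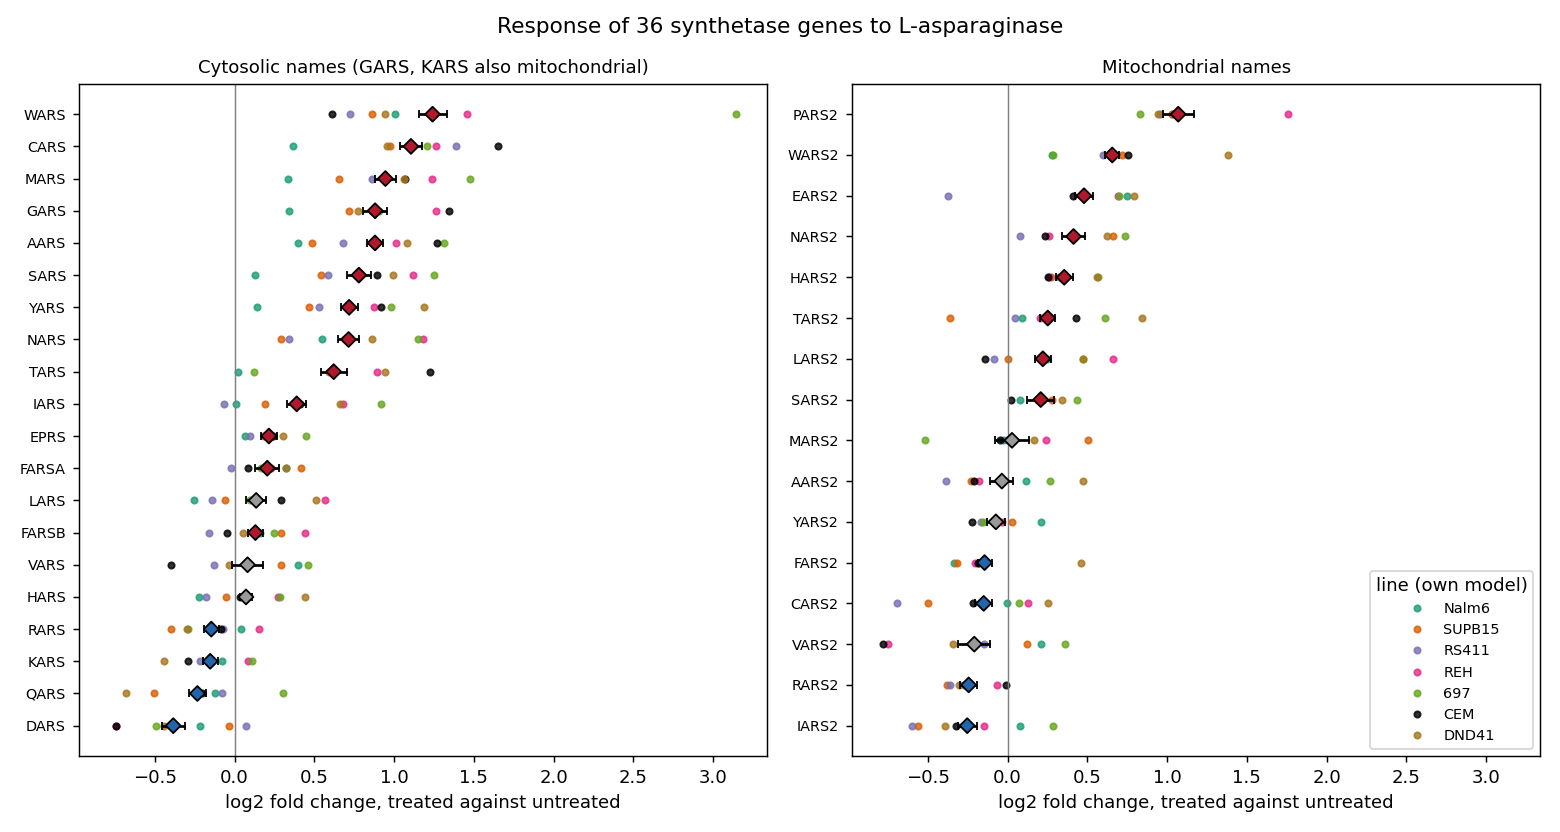
Log2 fold change of the 36 genes, treated against untreated. Diamonds are the mean of the 7 lines with its SE, in red where called higher, blue where called lower and grey where not called; dots are the 7 lines in their own models. WARS heads the cytosolic names at 1.24 and DARS is lowest at -0.38; PARS2 heads the mitochondrial names at 1.07 and IARS2 is lowest at -0.25.

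The enzymes for the amino acids that the drug removes did not move together. NARS, which charges tRNA with asparagine, rose 1.64-fold on average (log2 0.71 ± 0.06 SE, adjusted p = 2.43e-11) and had a positive fold change in 7 of 7 lines. In REH, NARS stood at 211, 210 and 208 CPM untreated and at 359, 486 and 549 CPM treated. In Nalm6 it stood at 227, 270 and 261 CPM untreated and 327, 342 and 415 CPM treated. The groups did not overlap in either line, and NARS was called higher in REH (log2 1.18 ± 0.14), Nalm6 (0.55 ± 0.12), CEM (0.69 ± 0.11) and DND41 (0.86 ± 0.19). The call in Nalm6 rested on treated library C (adjusted p = 0.0693 without it). NARS2, the mitochondrial asparaginyl enzyme, also rose (log2 0.41 ± 0.07, adjusted p = 1.71e-05), with calls in SUPB15 (0.66 ± 0.17) and DND41 (0.62 ± 0.16). Each of these 2 calls was lost in 3 of the fits that left out 1 library (adjusted p up to 0.0903 and 0.0874). NARS2 was also called higher in REH (adjusted p = 0.0206), CEM (0.0281) and Nalm6 (0.0202) with the replicate block, which pairs libraries of 1 letter. Pairing was not clear in Nalm6, as described with the processing.

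QARS, the glutaminyl enzyme, fell instead. Its mean log2 fold change was -0.23 ± 0.05 (adjusted p = 4.44e-04), with a negative value in 6 of 7 lines. In DND41 it stood at 117, 144 and 137 CPM untreated and at 92.2, 70.2 and 81.0 CPM treated. In SUPB15 the levels were 127, 162 and 162 CPM untreated and 109, 105 and 107 CPM treated. Treated libraries were below all untreated ones in both, with log2 fold changes of -0.68 ± 0.14 and -0.50 ± 0.12. In 697 the value was 0.30 ± 0.23 and was not called, and untreated library 1 of that line (129 CPM) stood far below the other two (238 and 209 CPM). The calls of QARS in SUPB15 and CEM were lost when single libraries were left out (adjusted p up to 0.1001 and 0.132), while the mean call held in each such fit. QARS was also called lower in REH with the replicate block (adjusted p = 0.0286).

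The enzymes for the 2 products of the reaction also differed. DARS, which charges aspartate, showed the largest fall of the 36 genes, with a mean log2 fold change of -0.38 ± 0.07 (adjusted p = 5.26e-05). In REH its untreated levels were 327, 477 and 564 CPM and its treated levels 212, 286 and 296 CPM. In CEM they were 224, 302 and 380 CPM untreated and 167, 182 and 190 CPM treated. These were the 2 lines in which DARS was called lower, at -0.74 ± 0.18 and -0.74 ± 0.15, whereas in RS411 and SUPB15 the values were 0.07 ± 0.11 and -0.04 ± 0.13 with overlapping groups. In DND41 DARS was called lower with the replicate block (adjusted p = 0.00927) or without untreated A (0.0118). EPRS, which joins a glutamyl and a prolyl enzyme in 1 protein, rose slightly on average (0.22 ± 0.05, adjusted p = 5.47e-04), was positive in 7 of 7 lines and was called in none. With the replicate block EPRS was called in REH (adjusted p = 0.034) and CEM (0.0337). EARS2, the mitochondrial glutamyl enzyme, rose more (0.48 ± 0.06, adjusted p = 1.69e-08) and was called in 5 lines.

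**Figure D2:**
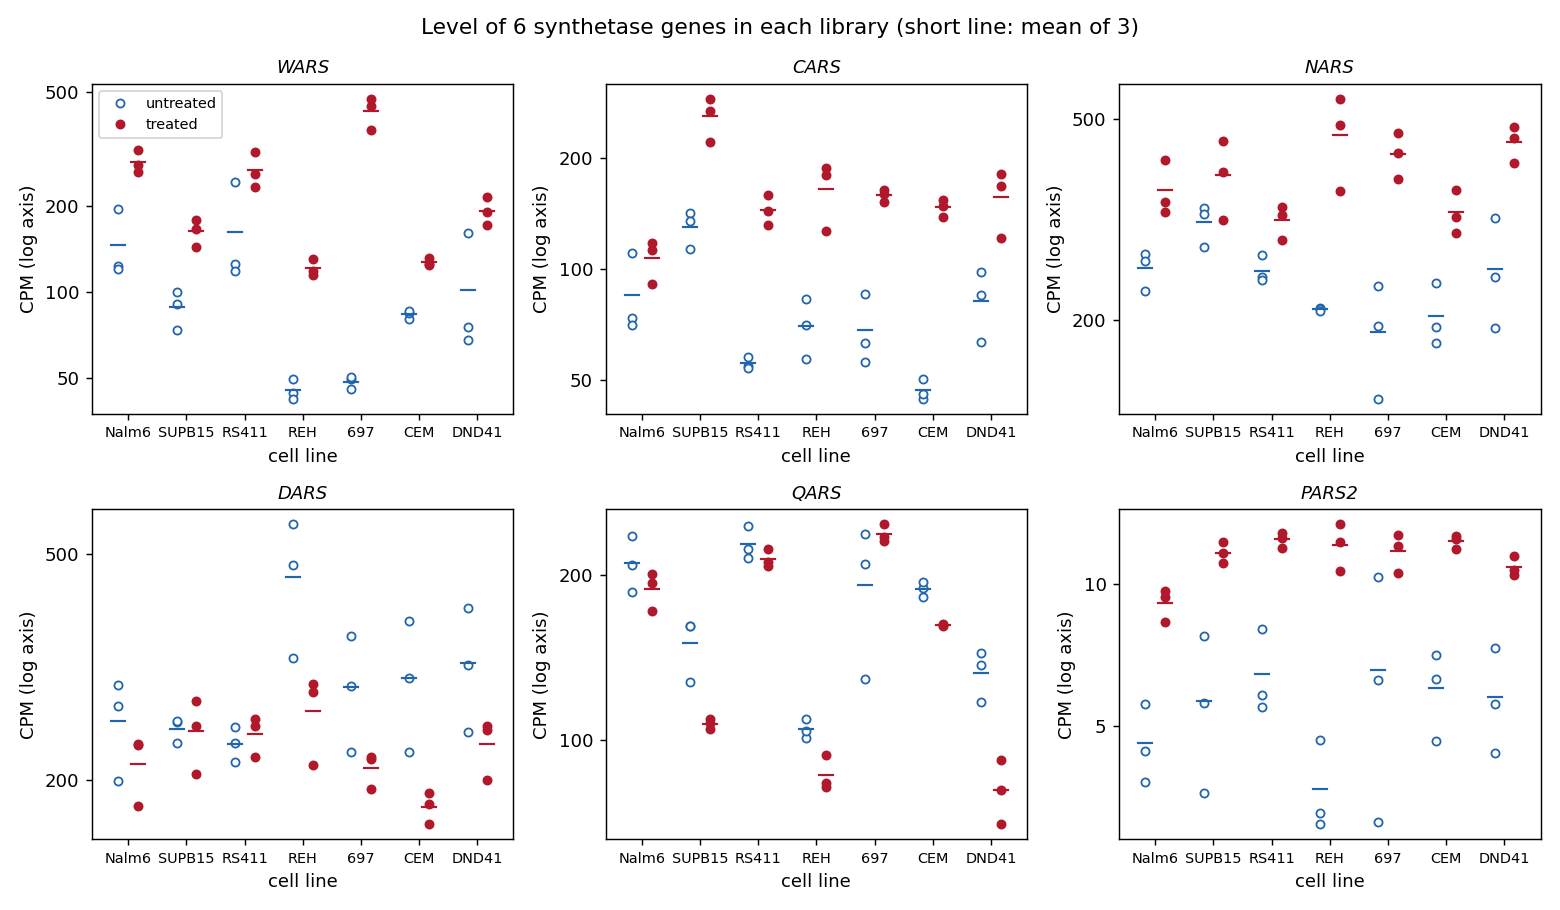
CPM of WARS, CARS, NARS, DARS, QARS and PARS2 in each library of the 7 lines, on log axes that differ between panels. Open points are untreated libraries, filled points treated libraries, and short lines the mean of 3. The treated libraries of PARS2 lie above the untreated ones in every line, and those of WARS in 697 lie between 370 and 476 CPM against 45.5 to 50.3 CPM untreated.

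WARS, the tryptophanyl enzyme, showed the largest mean rise, 2.36-fold (log2 1.24 ± 0.09, adjusted p = 5.83e-14). In 697 it stood at 45.5, 49.6 and 50.3 CPM untreated and at 370, 476 and 449 CPM treated, a rise of 8.85-fold (log2 3.14 ± 0.18, adjusted p = 0.00243). No other gene of the 36 changed as much in any line. In CEM, with 80.3, 84.6 and 85.6 CPM untreated and 125, 131 and 124 CPM treated, the rise was 1.53-fold (log2 0.61 ± 0.07). The mean of the 6 lines other than 697 was 0.93 for WARS. In RS411 untreated library A (242 CPM) lay within the treated range of 232 to 310 CPM. WARS was not called there (adjusted p = 0.131). Leaving out untreated A gave an adjusted p of 4.12e-04, and the replicate block, which pairs treated and untreated libraries of 1 letter, gave 0.0154. Pairing by letter was not clear in RS411, as described with the processing. In DND41 the call of WARS was lost when any 1 library other than untreated A was left out (adjusted p up to 0.146).

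CARS, the cysteinyl enzyme, rose 2.15-fold on average (log2 1.11 ± 0.07, adjusted p = 3.37e-15). Its untreated levels in CEM were 44.6, 50.5 and 45.8 CPM and its treated levels 138, 149 and 154 CPM, a 3.15-fold rise. In RS411 they were 57.9, 54.7 and 53.9 CPM untreated and 132, 144 and 158 CPM treated. The groups were apart in 6 of 7 lines, with Nalm6 the exception (73.7, 110 and 70.5 CPM untreated, 117, 91.2 and 112 CPM treated).

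The other cytosolic enzymes outside the complex with large rises were AARS (alanyl, 0.88 ± 0.05), GARS (glycyl, dual, 0.88 ± 0.08), SARS (seryl, 0.78 ± 0.07), YARS (tyrosyl, 0.72 ± 0.05) and TARS (threonyl, 0.62 ± 0.08), with adjusted p between 4.25e-16 (AARS) and 8.60e-08 (TARS). AARS was the only 1 of the 36 besides PARS2 whose treated libraries lay above the untreated ones in 7 of 7 lines. The share of all genes with groups apart in this way was not counted. In 697, for example, AARS rose from 146, 148 and 180 CPM to 387, 382 and 414 CPM. GARS had its largest rise in CEM, from 196, 206 and 213 CPM to 480, 538 and 534 CPM (2.54-fold). SARS was called higher in 5 lines, YARS in 6 and TARS in 4. Of these calls 2, 3 and 3 held in every fit that left out 1 library. For AARS it was 3 of 6 calls and for GARS 2 of 5. TARS in 697 overlapped between the groups, with 663, 365 and 283 CPM untreated and 519, 530 and 401 CPM treated (log2 0.12 ± 0.34). The first of those untreated libraries is the 1 that stood apart.

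FARSA and FARSB, which encode the subunits of the phenylalanyl enzyme, moved little, at 0.20 ± 0.07 (adjusted p = 0.0267) and 0.13 ± 0.05 (adjusted p = 0.0301). The call of FARSB was lost in 13 of 48 alternative fits and that of FARSA in 1. HARS (histidyl) and VARS (valyl) were not called, at 0.07 ± 0.04 and 0.08 ± 0.10. HARS was nevertheless called higher in REH, from 65.2, 70.2 and 71.8 CPM to 76.0, 83.1 and 84.2 CPM, a call that was lost when any 1 of its 6 libraries was left out (adjusted p up to 0.169). VARS was called lower in CEM, where its groups overlapped (127, 94.7 and 94.8 CPM against 95.2, 68.3 and 74.4 CPM). That call was lost without treated B or C (adjusted p = 0.169 and 0.151) or untreated A (0.102), which moved the log2 fold change from -0.40 to -0.24. Without the 5 untreated libraries HARS was called at 0.13.

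The calls of the multisynthetase complex members went both ways. Of the 8 complex members, 3 rose (MARS, IARS and EPRS), 4 fell (DARS, QARS, KARS and RARS) and LARS was not called, with a median log2 fold change of -0.01. Of the other 12 cytosolic names, 10 rose and none fell, with a median of 0.72. The medians were not compared by a test. Over all genes tested, 17.6% were called higher and 19.4% lower. With every library, all 4 cytosolic names that fell were thus complex members. Without the 5 untreated libraries that stood apart, RARS was not called and LARS was called higher. With every library the fold changes of the 8 complex members ran from 0.95 ± 0.07 for MARS to the fall of DARS.

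MARS, the methionyl enzyme, was called higher in 6 of 7 lines, and in 697 went from 109, 172 and 196 CPM to 440, 463 and 426 CPM. IARS, the isoleucyl enzyme, rose by 0.39 ± 0.06 on average (adjusted p = 1.33e-06), in REH from 497, 486 and 441 CPM to 566, 815 and 840 CPM. In RS411 its groups overlapped (755, 697 and 660 CPM against 701, 643 and 661 CPM). LARS, the leucyl enzyme, gave 0.14 ± 0.06 (adjusted p = 0.0980), with calls in REH (0.57 ± 0.13) and CEM (0.29 ± 0.09). The call in CEM was lost without untreated B or treated B or C (adjusted p up to 0.143), and in DND41 LARS was called with the replicate block (0.0324) or without untreated A (0.00391). Without the 5 untreated libraries LARS was called at 0.25, and it was also called without 697 untreated 1 (adjusted p = 0.0283) or DND41 untreated A (0.00859).

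KARS (lysyl, dual) fell by 0.15 on the log2 scale (SE 0.05, adjusted p = 0.00949), and was called lower in CEM (-0.29 ± 0.09) and DND41 (-0.44 ± 0.13). In DND41 it went from 279, 221 and 258 CPM to 187, 182 and 179 CPM. RARS (arginyl) fell by 0.15 as well (SE 0.05, adjusted p = 0.0148), but without the 5 untreated libraries its value was -0.08 and it was not called (adjusted p = 0.179). Both calls of KARS were lost in 4 of the fits that left out 1 library (adjusted p up to 0.0967 in CEM and 0.143 in DND41), while its mean call held in each. The dual genes GARS and KARS moved in opposite directions in the mean response. In bulk RNA a lower level per cell and a smaller share of expressing cells cannot be told apart.

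Among the mitochondrial names, PARS2, the prolyl enzyme, rose most. Its levels were low, 3.68 to 6.58 CPM untreated as means of lines, and the treated libraries lay above the untreated ones in 7 of 7 lines. In REH it stood at 4.67, 3.27 and 3.09 CPM untreated and 13.4, 10.7 and 12.3 CPM treated, a 3.39-fold rise. In 697 untreated libraries were spread over 3.12, 6.27 and 10.3 CPM, and the value of 0.83 ± 0.39 was not called. The mean rise was 2.10-fold (log2 1.07 ± 0.10, adjusted p = 3.78e-11). Of the 6 calls of PARS2 in single lines, 3 held in every fit that left out 1 library.

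WARS2, the mitochondrial tryptophanyl enzyme, rose 1.58-fold (0.66 ± 0.05, adjusted p = 3.98e-14) and was highest in DND41. There it went from 15.9, 12.1 and 11.9 CPM to 31.2, 35.1 and 36.04 CPM, a 2.61-fold rise. EARS2 rose in 5 lines, in Nalm6 from 33.6, 25.8 and 36.7 CPM to 48.1, 56.9 and 53.1 CPM. Of its 5 calls, 3 held in every fit that left out 1 library. In RS411 its value was -0.37 ± 0.14 (adjusted p = 0.109), with untreated library A (33.6 CPM) below the other two (42.04 and 44.1 CPM). Without that library the lower level in RS411 was called (adjusted p = 0.0135). EARS2 in RS411 thus had the opposite sign to the other 6 lines.

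The rest of the mitochondrial rises were smaller. HARS2 (histidyl) gave 0.36 ± 0.05 and was positive in 7 of 7 lines, TARS2 (threonyl) 0.25 ± 0.05, LARS2 (leucyl) 0.22 ± 0.05 and SARS2 (seryl) 0.21 ± 0.08. SARS2, at 2.11 to 3.58 CPM untreated, had an adjusted p of 0.0466 and lost its call in 28 of 48 alternative fits. Among these were the fits without the 5 untreated libraries (adjusted p = 0.138) and without the 3 treated ones (0.0885). TARS2 was the only 1 of the 36 called in both directions. It fell in SUPB15, from 34.7, 35.1 and 38.1 CPM to 28.3, 28.9 and 28.0 CPM, and rose in DND41, from 28.0, 20.3 and 29 CPM to 52.0, 41.0 and 43.0 CPM, and in CEM. The fall in SUPB15 was not called with the replicate block (adjusted p = 0.0611), nor without untreated B or C or any 1 treated library (adjusted p between 0.0878 and 0.182).

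Mitochondrial names that fell were IARS2 (isoleucyl, -0.25 ± 0.06), RARS2 (arginyl, -0.24 ± 0.05), CARS2 (cysteinyl, -0.15 ± 0.05) and FARS2 (phenylalanyl, -0.14 ± 0.04). Without the 3 treated libraries that stood apart CARS2 was not called (adjusted p = 0.056). RARS2 was negative in 7 of 7 lines and called in none of them. IARS2 in RS411 went from 101, 150 and 136 CPM to 79.99, 88.1 and 84.3 CPM, and CARS2 in RS411 from 53.0, 71.5 and 65.6 CPM to 41.1, 37.8 and 37.5 CPM. Treated libraries lay below all untreated ones for both genes in this line, though the call of IARS2 was lost without any 1 library other than untreated A (adjusted p up to 0.125) and that of CARS2 without treated B or C (0.0718 and 0.0826). Other lines went the opposite way, with IARS2 positive in 2 of 7 lines and CARS2 in 3 of 7. Treated libraries lay above all untreated ones for IARS2 in 697 (0.28 ± 0.17) and CARS2 in REH (0.13 ± 0.09), though neither was called there. FARS2 was called in none of the 7 lines. Its log2 fold changes lay between -0.16 and -0.34 in 6 lines and at 0.46 ± 0.16 in DND41 (adjusted p = 0.0572), where the replicate block gave an adjusted p of 0.0113 and DESeq2 0.0449. MARS2 (methionyl, 0.03 ± 0.10), AARS2 (alanyl, -0.04 ± 0.07), YARS2 (tyrosyl, -0.07 ± 0.06) and VARS2 (valyl, -0.21 ± 0.10) were not called on average. VARS2 nonetheless fell in CEM, from 38.3, 35.96 and 35.2 CPM to 23.9, 17.7 and 21.7 CPM, and in REH. Without the 5 untreated libraries VARS2 and YARS2 were called lower, at -0.35 and -0.13.

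Each mitochondrial gene was set beside the cytosolic gene for the same amino acid, which gave 17 pairs since EPRS serves glutamate and proline and FARS2 faces both phenylalanyl subunits. The mean response of the cytosolic gene was above that of the mitochondrial gene in 13 of 17 pairs. The widest gap was between CARS and CARS2, 1.26 log2 units, with CARS above CARS2 in 7 of 7 lines. MARS and AARS exceeded MARS2 and AARS2 by 0.92 each, also in 7 of 7 lines. The 4 pairs in which the mitochondrial gene was above were proline (PARS2 over EPRS by 0.85, in 7 of 7 lines), histidine (HARS2 over HARS by 0.28), glutamate (EARS2 over EPRS by 0.26) and leucine (LARS2 over LARS by 0.09). Without the 5 untreated libraries the leucine pair turned round, with LARS at 0.25 and LARS2 at 0.24, and the cytosolic gene was above in 14 of 17 pairs. Differences between 2 genes were not tested.

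**Figure D3:**
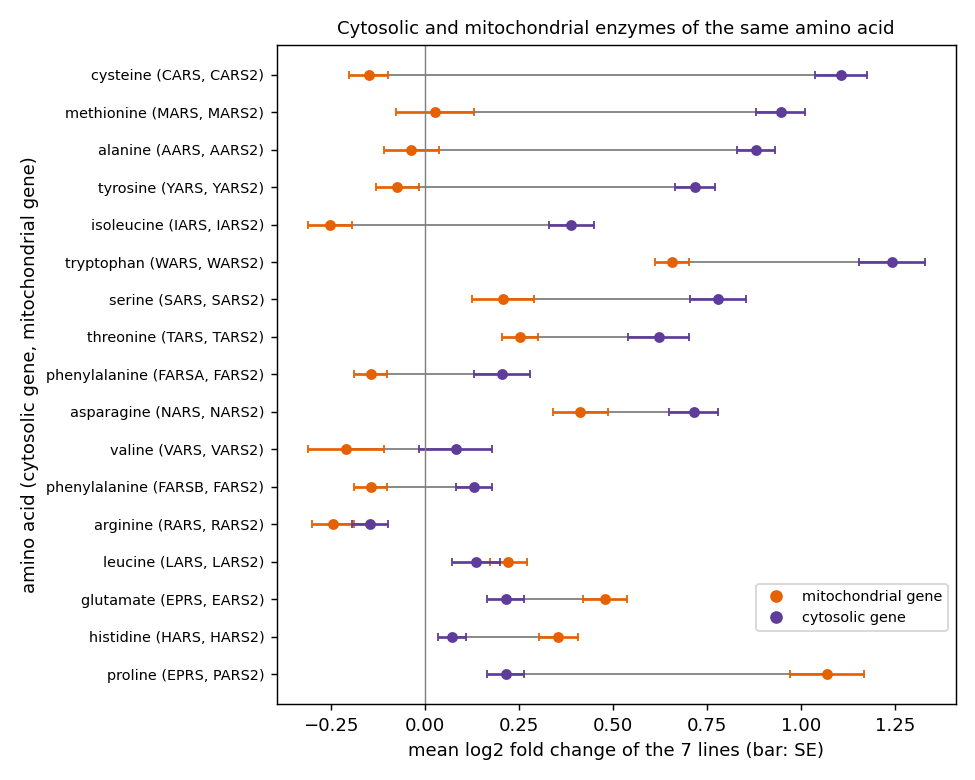
Mean log2 fold change of the 7 lines, with its SE, for the cytosolic and the mitochondrial gene of each amino acid, in 17 pairs sorted by the gap. Cysteine has the widest gap in favour of the cytosolic gene, 1.26, and proline is the widest in the other direction.

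Both structural classes held cytosolic names that rose and fell. Class I and class II enzymes have unrelated catalytic folds, and EPRS, which carries both, was left out of this count. Of 9 cytosolic class I genes 5 rose and 2 fell (median 0.39), and of 10 class II genes 7 rose and 2 fell (median 0.41). Among mitochondrial names, 3 of 9 class I genes rose and 3 fell (median -0.07), and 5 of 7 class II genes rose and 1 fell (median 0.25). Over all genes tested, 17.6% were called higher and 19.4% lower, and the classes were not compared by a test.

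The number of members called differed between the lines, as did the share of all genes called. In Nalm6 5 members rose and none fell, beside 9.14% of all genes higher and 11.9% lower. In SUPB15 13 rose and 5 fell (all genes 13.1% and 13.4%), and in RS411 7 rose and 2 fell (7.87% and 5.41%). In REH 17 rose and 2 fell (13.5% and 13.6%). In 697 6 rose and none fell (1.67% and 0.954%). In CEM 15 rose and 6 fell (19.1% and 18%), and in DND41 17 rose and 2 fell (15.3% and 12%). The median log2 fold change of the 36 members ran from -0.01 in RS411 to 0.47 in DND41.

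**Figure D4:**
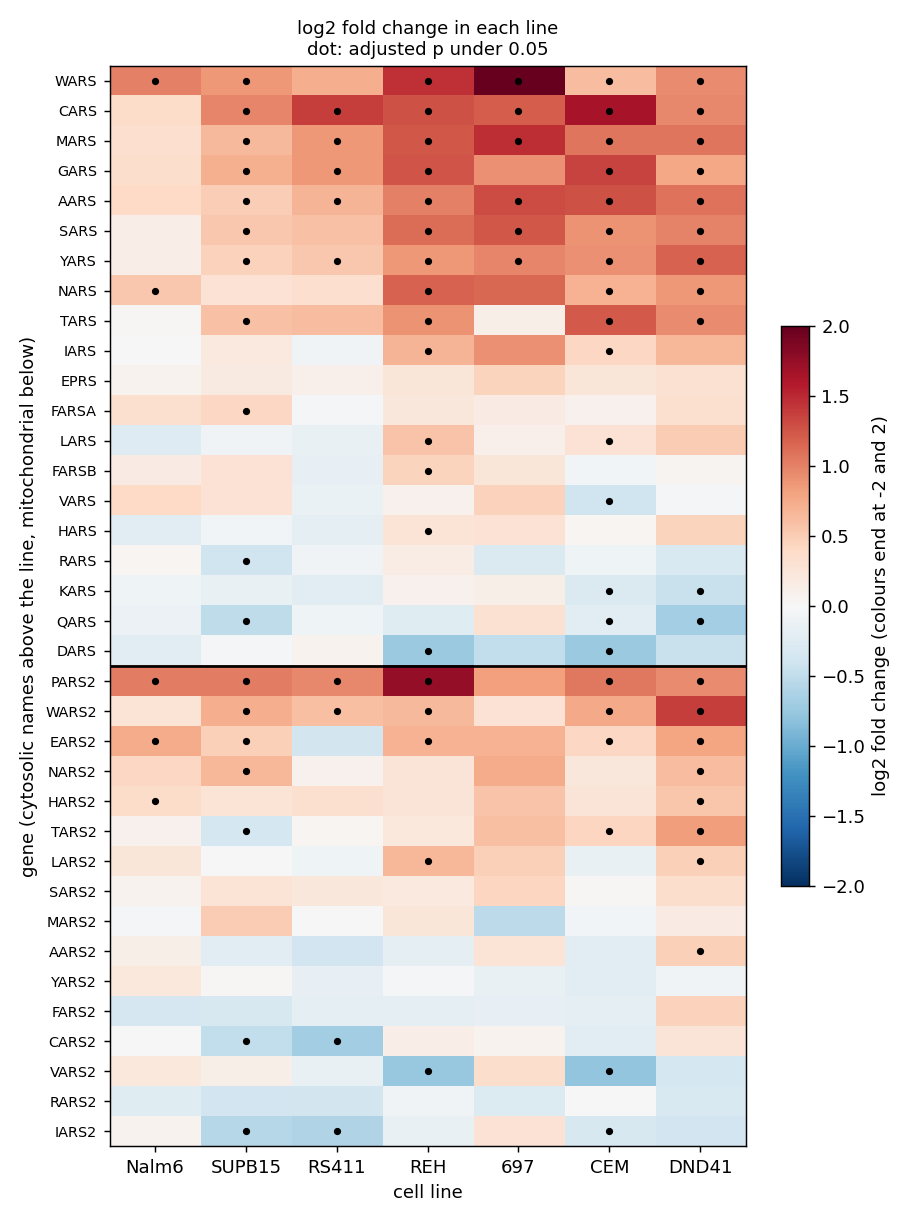
Log2 fold change of the 36 genes in each line, from the model of that line, with a dot where the adjusted p was under 0.05. Colours end at -2 and 2, so WARS in 697, at 3.14, is shown at the end of the scale. Rows follow the mean response within the cytosolic names (above the line) and the mitochondrial names (below it).

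The 697 calls were AARS, CARS, MARS, SARS, WARS and YARS. The 3 untreated libraries of 697 were far apart, and without untreated 1 the number of called members was 17, beside 23.7% of all genes called in either direction against 2.62% with every library. Leaving out untreated 2 or 3, or any treated library, left WARS alone, beside 0.0703% to 0.38% of all genes. GARS in 697 shows the spread, with 477, 345 and 246 CPM untreated and 688, 719 and 625 CPM treated, where the lowest treated library exceeded the highest untreated one and the gene was still not called (adjusted p = 0.127).

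Counts in other lines also moved with single libraries, together with the share of all genes called. In RS411 (13.3% of all genes in either direction) 16 members were called without untreated A (27.1%) and 2, CARS and MARS, without treated B (3.03%) or treated C (2.26%). In SUPB15 (26.5%) the numbers were 22 without untreated A (41.3%), 8 and 10 without untreated B and C (18.7% and 17.1%), and 4 and 5 without treated B and C (11.5% and 14.4%). In Nalm6 (21.1%) 9 members were called without untreated A (24.4%) and 3 without treated C (11.3%). In DND41 (27.2%) 28 were called without untreated A (34.8%), and 12 and 11 without treated B and C (14.4% and 12.1%). In CEM and REH the number lay between 16 and 23 in each such fit. The share of all genes was 26.2% to 39.8% in CEM (37.2% with every library) and 15.4% to 28.7% in REH (27.2%). Of the 97 calls of a member in a single line, 53 held in every fit that left out 1 library. CARS, MARS and WARS each held in 5 lines and WARS2 in 4.

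In Nalm6 few cytosolic names were called. WARS (123, 194 and 120 CPM untreated, 278, 263 and 315 CPM treated, log2 1.00 ± 0.18) and NARS were the 2 called among its 20 cytosolic names, whereas EARS2, HARS2 and PARS2 were called among its mitochondrial names. The call of HARS2 was lost without any 1 library other than untreated A (adjusted p between 0.0725 and 0.110). For 10 of the 20 cytosolic names the lowest response of the 7 lines was in Nalm6, and for 10 the highest was in 697. SARS in Nalm6, for instance, stood at 234, 326 and 221 CPM untreated and 262, 276 and 298 CPM treated. How often these lines were lowest or highest over all genes was not counted, and the untreated libraries of 697 were far apart.

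The response differed between lines for 19 of the 36 members in the interaction test of the joint model (6 df), beside 21.1% of all genes. These were 12 cytosolic and 7 mitochondrial names. WARS had the widest range in that model, from 0.60 in CEM to 3.16 in 697 (adjusted p = 4.64e-06). TARS2 ran from -0.34 in SUPB15 to 0.81 in DND41 (1.23e-04), WARS2 from 0.25 in Nalm6 to 1.36 in DND41 (1.35e-04) and AARS from 0.36 in Nalm6 to 1.32 in 697 (5.43e-04). EARS2 ranged from -0.39 in RS411 to 0.77 in DND41 (0.00116) and QARS from -0.71 in DND41 to 0.31 in 697 (0.00589). PARS2 (adjusted p = 0.489) and GARS (0.0949), which rose strongly, were not called different between lines, nor was DARS (0.0798). DARS was called in 5 of 42 fits that left out 1 library, and with the replicate block (0.00372). GARS was called in 4 of 42 such fits and with no filter on low counts (0.0492). The call of LARS (0.0426) was lost in 22 of 42 such fits, and with the replicate block (0.0799). Without the 5 untreated libraries 27 members were called, beside 34.5% of all genes in that fit, among them GARS (0.00593), PARS2 (0.0401) and DARS (0.0270).

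Untreated levels differed between lines for 34 of 36 members, beside 87.7% of all genes. KARS (adjusted p = 0.116) and VARS (0.140) were the exceptions. GARS had the widest spread, from 101 CPM in RS411 to 371 CPM in DND41 (3.65-fold), followed by WARS, from 45.3 CPM in REH to 162 CPM in RS411 (3.57-fold). CEM had the lowest untreated mean of AARS (106 CPM), CARS (46.9 CPM), EPRS (305 CPM), SARS (105 CPM), TARS (274 CPM) and YARS (177 CPM). SUPB15 had the highest of these except SARS, which was highest in Nalm6 (260 CPM). Some of these ranks rested on the libraries that stood apart. Without them DND41 was lowest for AARS (95.5 CPM) and EPRS (289 CPM), and Nalm6 was highest for GARS (310 CPM) and WARS (157 CPM).

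Per kilobase of transcript, the untreated level of the cytosolic gene was above that of its mitochondrial partner in 17 of 17 pairs. The ratio had a median of 5.02, from 1.18 for CARS and CARS2 to 72.0 for SARS and SARS2. The highest untreated levels per kilobase were 129 CPM for KARS, 127 CPM for DARS and 120 CPM for IARS, and the lowest 1.35 CPM for SARS2 and 2.36 CPM for PARS2. Transcript lengths came from GENCODE v29 and not from the authors' annotation.

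Summed over the 20 cytosolic names, treated libraries were above untreated ones in 6 of 7 lines. In REH the sums were 3944, 4012 and 3950 CPM untreated and 4963, 6358 and 6905 CPM treated, a ratio of 1.53. In CEM they were 3305, 3491 and 3859 CPM untreated and 4873, 5149 and 5237 CPM treated, a ratio of 1.43. The ratio was highest in 697 (1.61) and lowest in Nalm6 (1.09), where the groups overlapped. The 16 mitochondrial names together gave ratios of 0.88 in RS411 to 1.22 in 697, and their groups were apart only in DND41 (531, 516 and 592 CPM untreated, 611, 657 and 651 CPM treated).

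**Figure D5:**
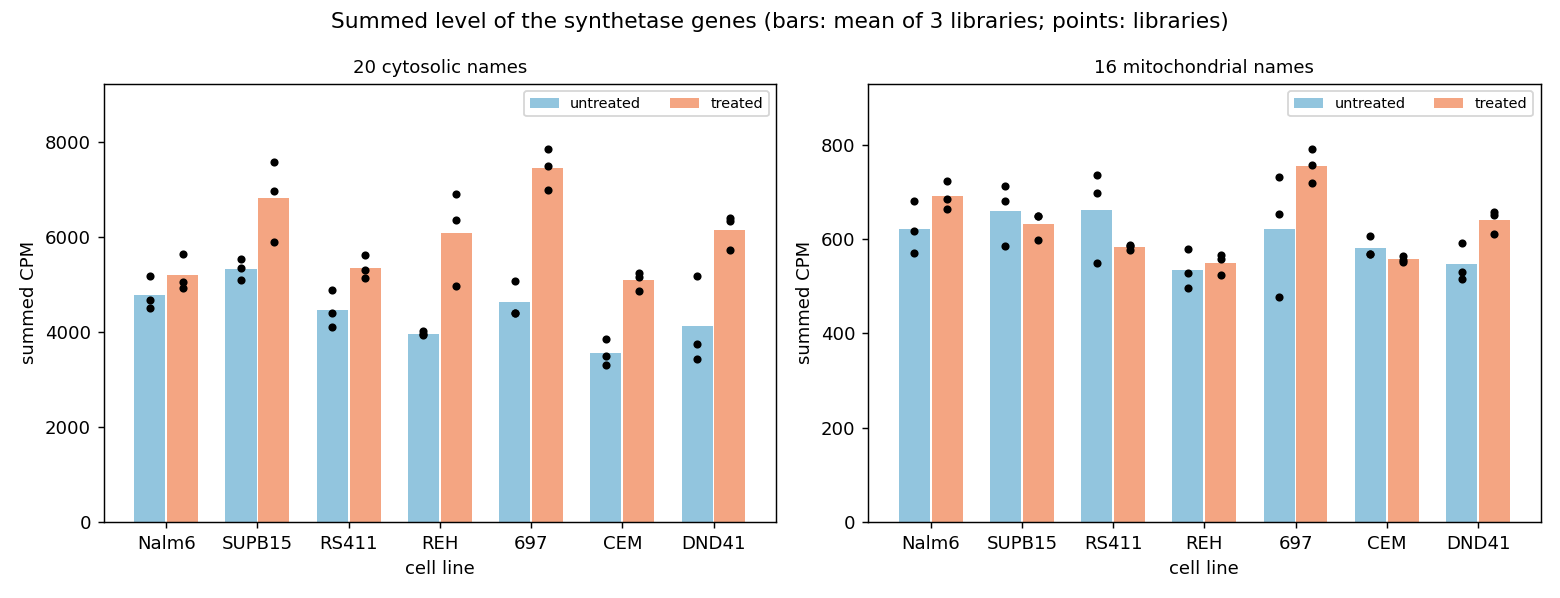
Summed CPM of the 20 cytosolic and the 16 mitochondrial names in each line. Bars are means of 3 libraries, points the libraries, and the 2 axes differ in scale. The mean cytosolic sum was higher with treatment by a ratio of 1.09 (Nalm6, where libraries overlapped) to 1.61 (697), whereas the mitochondrial ratios lie on both sides of 1.

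Since ATF4 acts through a C/EBP-ATF response element, the promoter windows of the members were searched for its core, TGATGNAA, on both strands. Windows of 300 bases, 250 before and 50 after the annotated start, came from RefSeq (GRCh38.p14) and covered 30 of the 36 members. The core was present in 6 of 16 cytosolic windows (37.5%), in 1 of 14 mitochondrial windows (7.14%) and in 1270 of all 35116 windows (3.62%). The 6 cytosolic genes with it were AARS, CARS, IARS, MARS, NARS and TARS. They are shown because the spelling was the same in all 6, TGATGCAA on one strand or the other, a version that 0.866% of all windows hold and that was looked at after the matches were seen. The capitals mark the match, and each run is read along the strand of its gene.
AARS, chr16:70289675-70289704, minus strand: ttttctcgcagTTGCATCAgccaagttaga
CARS, chr11:3057407-3057436, minus strand: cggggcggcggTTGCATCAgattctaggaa
IARS, chr9:92293692-92293721, minus strand: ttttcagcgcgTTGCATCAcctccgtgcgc
MARS, chr12:57488053-57488082, plus strand: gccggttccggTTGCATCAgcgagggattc
NARS, chr18:57621804-57621833, minus strand: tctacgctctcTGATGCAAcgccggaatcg
TARS, chr5:33440956-33440985, plus strand: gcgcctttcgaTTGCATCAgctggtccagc
YARS2, chr12:32756076-32756105, minus strand: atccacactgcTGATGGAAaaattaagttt
The match began 15 bases or fewer from the annotated start in CARS, IARS, MARS, NARS and TARS, and 187 bases before it in AARS. YARS2, the mitochondrial gene with a match, has another base at the open position, 197 bases before its start. All 6 cytosolic genes with the core rose in the mean response (median 0.80), where 17.6% of all genes were called higher and 19.4% lower. Of the 10 cytosolic names with a window and no match, 6 rose and 3 fell (median 0.17), among them WARS, GARS and SARS, which rose by 0.78 or more. A match is a description of these letters and not of binding, and the windows of HARS and HARS2 overlap, since the genes lie head to head.

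Other genes of the pathway gave a mixed picture, in a mean response that called 17.6% of all genes higher and 19.4% lower. Of the 3 scaffold genes of the complex, AIMP2 (0.56 ± 0.06) and EEF1E1 (0.25 ± 0.06) rose and AIMP1 (-0.01 ± 0.06) was not called. Of 9 accessory genes of aminoacylation, SEPSECS, which makes selenocysteinyl-tRNA, rose 2.09-fold (1.06 ± 0.04, adjusted p = 3.18e-19). PSTK, which acts just before it (0.18 ± 0.06), and the amidotransferase subunits GATC (0.31 ± 0.04) and GATB (0.19 ± 0.05) also rose, while TARSL2, a second cytosolic threonyl enzyme, fell by 0.34 (SE 0.09).

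Among 15 genes of tRNA transcription, processing and export, 8 rose and 3 fell, beside 17.6% of all genes higher and 19.4% lower. POLR3B (0.69 ± 0.08) and POLR3A (0.41 ± 0.06), the large subunits of RNA polymerase III, rose, whereas POLR3G, an alternative subunit, fell by 0.52 (SE 0.10). TRNT1, which adds the CCA end (0.55 ± 0.05), POP1 (0.55 ± 0.06) and RPP30 (0.21 ± 0.05) of RNase P, the tRNA exporter XPOT (0.52 ± 0.08), the 3′ end processing enzyme ELAC1 (0.44 ± 0.06) and the RNA polymerase III factor BRF2 (0.39 ± 0.10) rose as well. SSB, the La protein (-0.39 ± 0.10), and GTF3C1, a subunit of the factor that binds tRNA genes (-0.27 ± 0.06), fell.

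Of 5 genes that sense uncharged tRNA or carry its signal, EIF2AK4 (-0.50 ± 0.05) and its activator GCN1 (-0.31 ± 0.07) fell and ATF4 rose slightly (0.16 ± 0.05, adjusted p = 0.0118). In single lines ATF4 ran from -0.45 to 0.45 in the joint model. All 6 markers of the amino acid response (DDIT3, TRIB3, ASNS, CHAC1, SESN2 and PSAT1) rose in the mean response, with a median of 2.19, beside 0.30 for the cytosolic synthetases. The largest mean response of a synthetase gene, that of WARS, was above that of ASNS, the asparagine synthetase (1.07 ± 0.10), and below those of the other 5. In single lines 4 of the 6 markers were called higher in Nalm6 and in 697, and 3 of the 5 tested in DND41. The number was 5 in SUPB15 and RS411 and 6 in REH and CEM. The share of all genes called higher in each line is given above. The lowest value of a line in the joint model was -0.06 for ASNS and -0.10 for CHAC1.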

How the data were processed

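The authors deposited 1 table of whole-number read counts per gene symbol for each line, not normalized. The submitters' processing notes name the hg19 build. What aligner, counter, annotation and strand setting the authors chose was not given in the sources used here, and overlapping antisense genes may share reads. A column's name gave its line and treatment. Replicate numbers stand in the columns of 697, while the letters A to C of the other lines are in no label. The tables were joined on symbol, and 2 repeated symbols (at most 9.49e-04% of a library) were left out.

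Each line was tested on its 6 libraries, and the mean response, the interaction and the untreated levels in 1 model of 42 libraries with 1 coefficient per group. edgeR 4.0.16 in R 4.3.3 was used, with TMM, filterByExpr (minimum count 10), glmQLFit and glmQLFTest. P-values were adjusted by Benjamini-Hochberg over all genes tested, and a gene was called at an adjusted p under 0.05. The scripts were tested on simulated counts. SE is the absolute log2 fold change divided by the root of the test's F value. CPM uses the joint model's TMM factors, and values of single lines come from that line's model. The members, the pathway lists and the role lists were chosen with earlier results of these data known. All members were named, in single lines those called with the largest changes, and of other lists those called in the mean response. Same-letter treated and untreated libraries deviated together (every correlation above 0.1) in SUPB15, RS411, REH, CEM and DND41, but not in Nalm6 (lowest 0.056) or 697 (-0.079). The highest correlation between different letters was 0.271 in RS411, above its lowest same-letter value of 0.121. It was 0.331 against 0.361 in DND41 and 0.141 against 0.192 in SUPB15. Pairing by letter was thus not clear in RS411. In Nalm6 the highest same-letter value was 0.479 and the highest between different letters 0.131. With its lowest same-letter value of 0.056, pairing was not clear in Nalm6 either. Counts of replicates differed beyond sampling noise (chi-square of at least 15.0 per degree of freedom). Alternatives were DESeq2 1.42.0 as scaling and as test, no filter on low counts, a replicate block and left-out libraries.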

Additional observations from a re-analysis of the deposited data

Results flagged for a closer look

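The 19 genes below gave different responses between lines in the interaction test of edgeR's joint model, and the values are its adjusted p. Among the cytosolic names these were WARS (4.64e-06), AARS (5.43e-04), HARS (0.00158), YARS (0.00162), IARS (0.00389), QARS (0.00589), CARS (0.00642), MARS (0.00980), NARS (0.0150), SARS (0.0219), TARS (0.0230) and LARS (0.0426). Among the mitochondrial names they were TARS2 (1.23e-04), WARS2 (1.35e-04), EARS2 (0.00116), CARS2 (0.00243), LARS2 (0.00487), FARS2 (0.00572) and IARS2 (0.0148). Of these, WARS had the widest range, 2.55 log2 units between CEM and 697, and FARS2 was negative in every line except DND41. The calls of LARS, SARS and TARS were lost in 22, 2 and 1 of the 42 fits that left out 1 library. LARS was also not called with DESeq2 size factors (0.0569) or the replicate block (0.0799), and FARS2 was not called with no filter on low counts (0.0668).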

How the results depend on the processing

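Of the 29 members called in the mean response, 23 kept their call and direction in all 48 alternative fits, and no called value changed sign. Of the 7 others, AARS2, MARS2 and VARS were called in none of these fits, and the values of AARS2 (-0.08 to 0.03) and MARS2 (-0.12 to 0.07) lay on both sides of 0. With no filter on low counts, 2 mitochondrial names fell in place of 4, since CARS2 and FARS2 were no longer called; RARS (-0.13) lost its call there too. The number of called members in single lines depended more on single libraries: over the fits that left out 1 library, Nalm6 gave 3 to 9 called members (5 with every library), SUPB15 4 to 22 (18), RS411 2 to 16 (9), 697 1 to 17 (6) and DND41 11 to 28 (19). The share of all genes called moved with these counts, as given above. With the replicate block the number of called members was 8 in Nalm6 (25.5% of all genes) and 1 in 697 (0.176%). In these 2 lines at least 1 same-letter or same-number correlation was under 0.1, so pairing was not clear. The number was 15 in SUPB15 (27.1%), 11 in RS411 (17.4%), 25 in REH (42.8%), 25 in CEM (42.7%) and 27 in DND41 (40.6%). Without the block the share was 27.2% in REH, 37.2% in CEM and 27.2% in DND41. In SUPB15 the block ended the calls of RARS, SARS, TARS and TARS2. The counts of the mean response (13, 4, 8 and 4) and of the interaction (19) were the same with the replicate block, but the interaction call of LARS was lost and that of DARS gained. Leaving out the first untreated library of a line, or 1 of the 3 treated libraries that stood apart, is the same fit in a single line as leaving out that replicate. DESeq2 was not run for the interaction or the untreated levels. Counts of mitochondrial names reached 43 in a library, which limits the precision of SARS2 and PARS2. The pairs and the untreated ranks without the 5 untreated libraries were computed after seeing the data.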
